A study of Mus musculus with 8 samples.

Results

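The liver makes most of the proteins that circulate in blood plasma, and hepatocytes, the parenchymal cells of the liver, carry their messenger RNAs at very high levels. Secreted plasma proteins such as albumin, the apolipoproteins and the antiproteases are made all the time. Acute-phase proteins are made in larger amounts when cytokines, above all interleukin-6 acting through STAT3 and interleukin-1 acting with C/EBP factors, reach the liver during injury or infection. A few acute-phase genes are also transcribed by myeloid cells. Metabolic enzymes of the hepatocyte stay inside the cell. In cells sorted out of a digested liver, transcripts of all these kinds can come from the sorted cells themselves, from a few hepatocytes or from free hepatocyte RNA. In bulk RNA, more hepatocytes or hepatocyte RNA in a sort and more of these transcripts per cell cannot be told apart.

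The genes described are 39 hepatocyte and acute-phase genes, chosen by symbol, out of 15336 genes in the count table. All 39 have 1 row each. They comprise 23 secreted plasma protein genes, 10 acute-phase genes and 6 metabolic enzyme genes. Of these, 35 had enough counts to be tested, and 4 did not (Saa1, Saa2, Cps1 and Bhmt). Together they had 7319 to 13996 counts in an animal, or 0.0496% to 0.100% of its library size after the scaling given below, and 36 of 39 were detected in all 8 animals.

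Polyadenylated RNA was sequenced from Ly6Chi monocytes, the inflammatory monocytes recruited into injured tissue, which were isolated by cell sorting from digested livers of 8 male mice, aged 8 weeks, on a C57BL/6 background. All animals had been fasted for 12 h and injected with 300 mg/kg acetaminophen, and cells were taken 24 h later. Both groups carry Commd10fl/fl, floxed alleles of Commd10, a gene whose protein belongs to a family that acts in endosomal sorting. The 4 controls (animals 2, 3, 10 and 11) carry these alleles alone, and the 4 LysMDCommd10 animals (5, 6, 12 and 13), called deficient here, also carry a Cre recombinase driven from Lyz2, the lysozyme M gene of myeloid cells. Without animals that have the Cre and unfloxed Commd10, the loss of COMMD10, the Cre itself and its insertion into Lyz2 cannot be told apart. The sample names are written in 2 ways, with animals 2, 3, 5 and 6 written in 1 way and animals 10, 11, 12 and 13 in the other; these label sets of 2 controls and 2 deficient animals each are called lower-numbered and higher-numbered here. What sets them apart is not said in the labels. Values in every animal are listed below for controls 2, 3, 10 and 11 and then for deficient 5, 6, 12 and 13, as CPM, a count relative to the size of its library, scaled by the trimmed mean of M-values (TMM). Log2 fold changes are deficient over control from the edgeR quasi-likelihood test with the label set in the model, each with its standard error (SE) from that model and a p adjusted by Benjamini-Hochberg over 12178 tested genes. A gene is called at an adjusted p under 0.05, and genes counted as having fallen or risen are called genes.

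Total counts per animal were 13327665 to 15759224. Commd10 was at 24.5 to 29.7 CPM in controls, against 8.73 to 17 CPM in deficient mice, and the cre transcript had 0 counts in every control and 37 to 122 counts in deficient animals. The deficient animals were not alike: Commd10 had 240, 214, 246 and 133 counts in them. Lyz2 had 216282, 245622, 118078 and 152582 counts in controls and 111253, 77891, 41124 and 4792 in deficient animals. Deficient 13 was the lowest animal for both genes. The monocyte genes Csf1r (2306 to 3292 CPM), Ccr2 (1050 to 1723 CPM) and Ly6c2 (212 to 355 CPM) were high in every animal. Of 16 listed hepatocyte transcription factors 7 had no row in the table, and Hnf4a, which defines the hepatocyte, had 0 to 16 counts per animal.

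Levels per length of exonic sequence set Hp apart from all other genes of the list. Hp, which encodes the haemoglobin-binding protein haptoglobin (ENSMUSG00000031722, GRCm38 chromosome 8, 109575128 to 109579172), averaged 227 CPM per kb over the 8 animals. Alb, which encodes albumin (ENSMUSG00000029368, GRCm38 chromosome 5, 90460897 to 90476602), followed at 40.6 CPM per kb. Serpina1e was at 13.4, Saa3 at 11.8, Apoc1 at 11.1 and Apoa1 at 10.1 CPM per kb. Bhmt (0.0522 CPM per kb) and Cps1 (0.0629 CPM per kb) were the lowest, although both encode abundant enzymes of the liver. Hp alone made up 63.1% to 88.5% of the summed acute-phase CPM, and Alb 29.2% to 40.1% of the summed secreted plasma protein CPM.

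**Figure D1:**
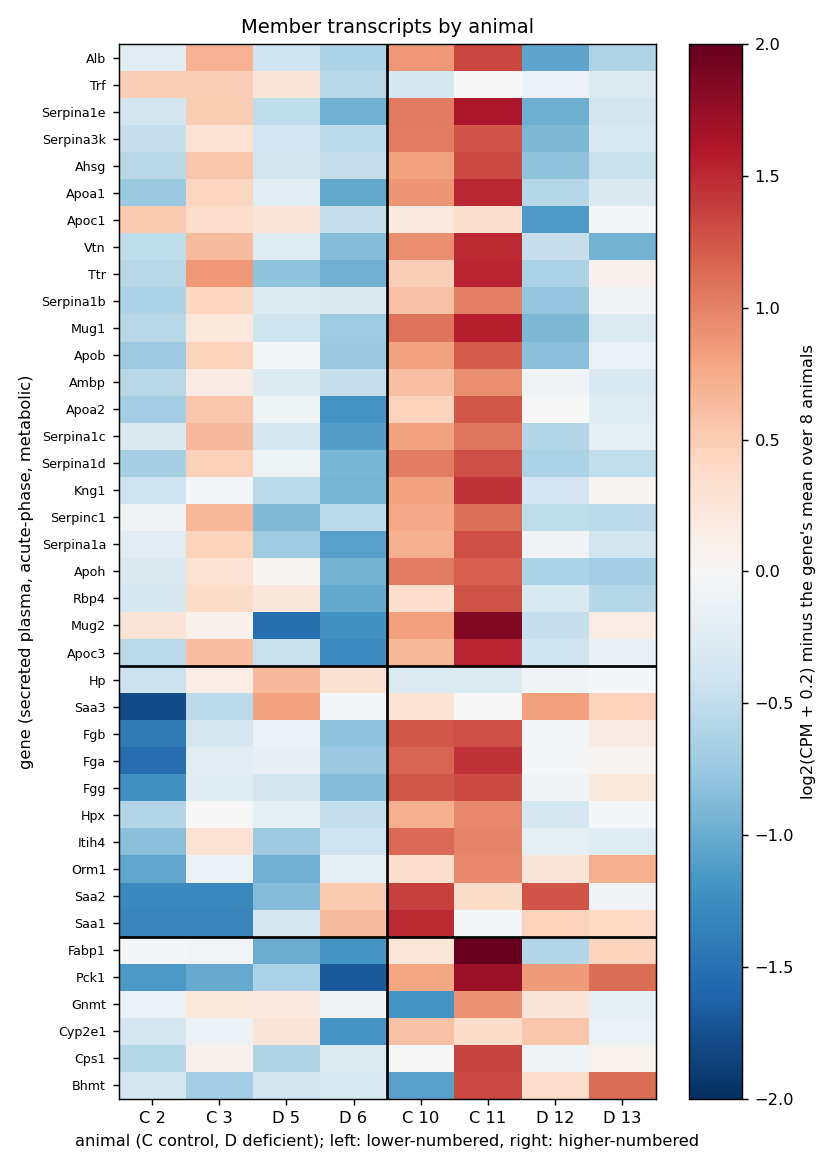
Level of each of the 39 genes in each of the 8 animals, as log2 of CPM plus 0.2 minus the gene's mean over the animals, with genes in rows grouped by role and animals in columns, the lower-numbered set on the left and the higher-numbered set on the right. Among tested genes, control 11 is the highest of the 8 animals in 29 of 35.

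The 3 roles differed in their sums. Summed secreted plasma protein transcripts were at 196, 328, 374 and 520 CPM in the controls and at 187, 139, 134 and 168 CPM in the deficient animals. Their mean was 354 ± 134 CPM in controls, against 157 ± 24.9 CPM in deficient mice (SD, n = 4 each). The groups did not overlap, but control 2 lay close to deficient 5. Within the lower-numbered set the deficient mean was 62.1% of the control mean, and within the higher-numbered set 33.8%. Summed acute-phase transcripts were at 296, 466, 459 and 467 CPM in controls and at 652, 502, 444 and 447 CPM in deficient animals. The genotypes overlapped over all animals, with the deficient animals above the controls in the lower-numbered set and slightly below them in the higher-numbered set. Summed metabolic enzyme transcripts were at 3.59, 4.25, 5.55 and 16 CPM in controls and at 3.88, 2.44, 6.36 and 7.29 CPM in deficient animals. The groups overlapped, and 1 animal, control 11, stood apart from the other 7.

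**Figure D2:**
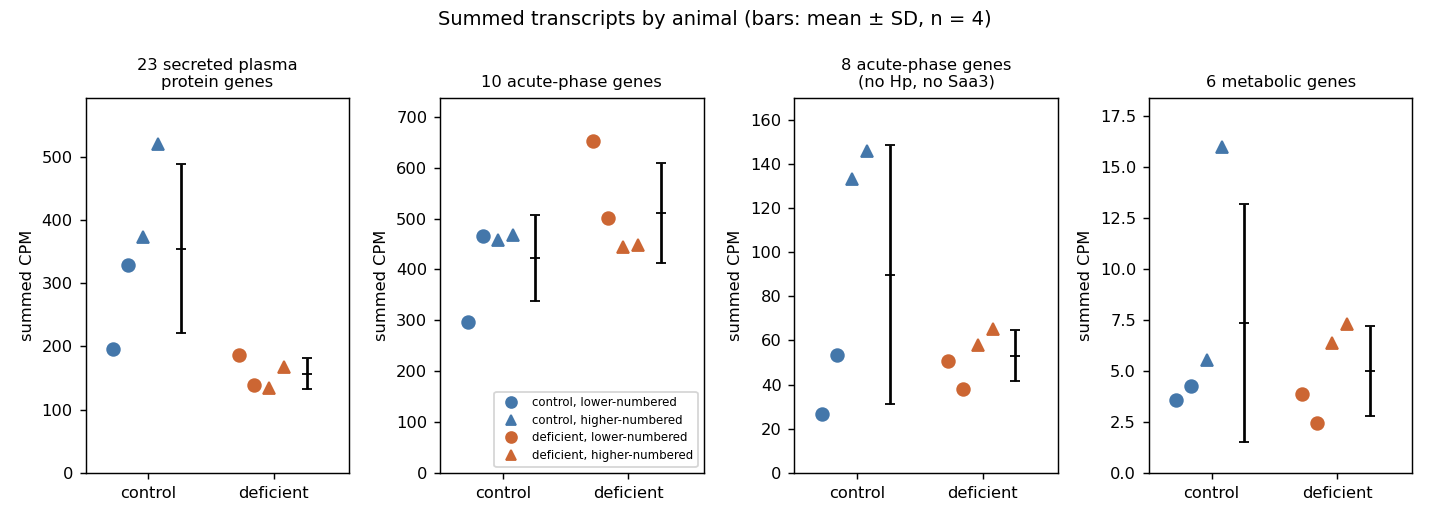
Summed CPM of the secreted plasma protein genes, of the acute-phase genes with and without Hp and Saa3, and of the metabolic enzyme genes, 1 point per animal, with genotype by colour, label set by symbol and black bars for mean and SD (n = 4). The secreted sum is at 134 to 187 CPM in deficient animals and at 196 CPM or more in controls, and the other sums overlap between genotypes.

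Across single genes, 14 of the 35 tested members fell in deficient animals and 0 rose. All 14 belong to the secreted plasma proteins (14 of 23). None of the 8 tested acute-phase and 4 tested metabolic genes was called. Among all 12178 tested genes, 7.35% fell and 6.59% rose. The median log2 fold change was -1.21 for the secreted genes, -0.54 for the acute-phase genes and -0.23 for the metabolic genes, against -0.00028 over all tested genes. All 23 secreted genes had a negative fold change. The calls depend on the label set being in the model. The label sets are balanced between genotypes, so the size and sign of the fold changes could change little. Without the label set the median of the secreted genes was -1.24, with 23 of 23 negative, and Alb was at -1.42 (edgeR adjusted p = 0.291). Without it edgeR called 0 of 12178 genes (1519 at an unadjusted p under 0.05; lowest adjusted p 0.273), limma voom without the label set called 0, and DESeq2 called 159, of which 6 are members. With the label set in the model, leaving out 1 animal at a time gave 5 to 22 called members, with 5 each without control 3, control 11 or deficient 12, 6 without deficient 13, 8 without deficient 6, 19 without deficient 5 and 22 without control 2.

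**Figure D3:**
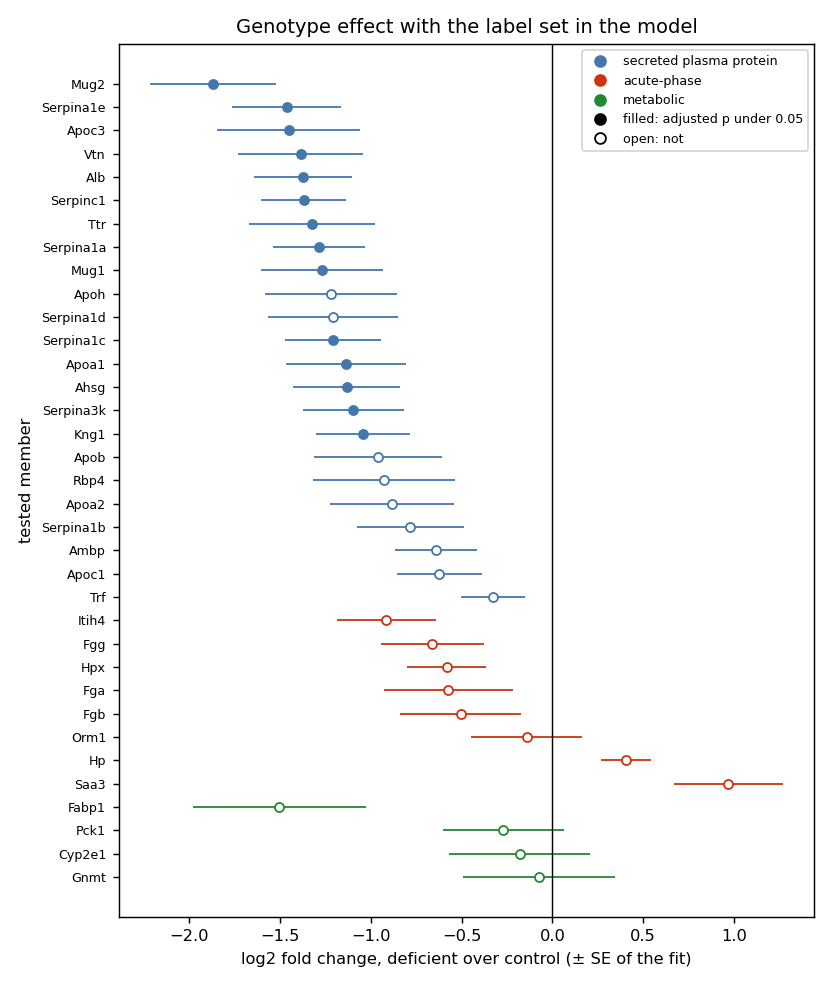
Log2 fold change of deficient over control for the 35 tested members, ordered within each role, with bars of 1 SE and called genes as filled points, from the edgeR model with the label set. The called genes are all secreted plasma protein genes, from Mug2 at -1.87 to Kng1 at -1.04.

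Among carriers and transport proteins, Alb was at 69.4, 132, 149 and 204 CPM in controls and at 61.4, 53.0, 39.1 and 53.3 CPM in deficient animals. The fold change was -1.37 on the log2 scale (SE 0.27, edgeR adjusted p = 0.0131), and the groups did not overlap. Alb and Serpinc1 were the members whose groups did not overlap over all 8 animals, against 3.40% of all tested genes with deficient animals lower and 3.62% with them higher. Ahsg, which encodes fetuin-A, an inhibitor of mineral deposition, was at 9.55, 20.8, 24.8 and 35.0 CPM and at 10.9, 10.0, 7.95 and 10.3 CPM (log2 fold change -1.13, edgeR adjusted p = 0.0351). Control 2 lay among the deficient animals for this gene. Vtn, which encodes the adhesion protein vitronectin, was at 3.46, 7.91, 9.75 and 14.4 CPM and at 4.15, 2.66, 3.60 and 2.49 CPM (-1.39, edgeR adjusted p = 0.0303). Again control 2 alone among the controls lay within the deficient range. Ttr, which encodes the thyroid hormone carrier transthyretin, also fell (-1.32, edgeR adjusted p = 0.0356).

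Trf, which encodes the iron carrier transferrin, did not follow albumin. It was at 42.3, 42.1, 24.0 and 30.2 CPM in controls and at 35.8, 20.4, 27.6 and 24.6 CPM in deficient animals. The fold change was -0.33 (SE 0.18, edgeR adjusted p = 0.238), and the highest levels were in both lower-numbered controls. Trf shares 78.6% of its 75-base transcript windows with the gene model Gm20425, so its counts are uncertain. Rbp4, which carries retinol, and Ambp, the precursor of alpha-1-microglobulin, had fold changes of -0.93 and -0.64 and were not called.

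Apolipoproteins are the protein parts of lipoprotein particles, and Apoh is a phospholipid-binding plasma protein. Apoa1, of high-density lipoprotein, fell by 1.14 on the log2 scale (edgeR adjusted p = 0.0496), and Apoc3, an inhibitor of triglyceride clearance, by 1.45 (edgeR adjusted p = 0.0392). Apoa2 (-0.88), Apob (-0.96), Apoc1 (-0.62) and Apoh (-1.22, edgeR adjusted p = 0.0530) were not called. Apoc1, which macrophages also transcribe, was at 8.93 to 11.2 CPM in controls, against 3.46 to 9.35 CPM in deficient mice.

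Antiproteases made up much of the rest. Serpina1a to Serpina1e are tandem copies of the alpha-1-antitrypsin gene, spread over GRCm38 chromosome 12 from 103728156 to 103958975. Serpina1e, the copy with the highest level per kb, was at 13.5, 24.9, 36.2 and 54.8 CPM in controls and at 12.3, 8.90, 8.78 and 13.5 CPM in deficient animals (-1.46, SE 0.30, edgeR adjusted p = 0.0148). Serpina1a was at 1.49, 2.46, 3.00 and 4.59 CPM and at 0.988, 0.718, 1.66 and 1.31 CPM (-1.29, edgeR adjusted p = 0.0131). Serpina1c was at 2.44, 4.85, 5.40 and 6.52 CPM and at 2.30, 1.29, 1.94 and 2.63 CPM (-1.21, edgeR adjusted p = 0.0190). In all 3 the deficient animals lay below the controls within each label set. Serpina1b and Serpina1d had fold changes of -0.78 and -1.21 and were not called. The copies share 20.3% to 66.1% of their 75-base windows with each other or with other genes, so the split of reads among them is uncertain, and their summed level was 50.1 ± 25.0 CPM in controls, against 19.1 ± 3.77 CPM in deficient mice (SD, n = 4 each).

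Serpina3k, a tissue kallikrein inhibitor, was at 11.0, 18.7, 31.2 and 36.6 CPM and at 11.7, 10.6, 8.09 and 12.3 CPM (-1.10, edgeR adjusted p = 0.0326). Serpinc1, which encodes antithrombin, was at 2.24, 3.85, 4.13 and 5.30 CPM and at 1.19, 1.58, 1.59 and 1.58 CPM (-1.37, SE 0.23, edgeR adjusted p = 0.00796). This was the smallest adjusted p of the list, with every deficient animal below every control. Mug1 and Mug2 encode murinoglobulins, protease-trapping relatives of alpha-2-macroglobulin. Mug2 was at 1.15, 0.997, 1.80 and 3.87 CPM and at 0.198, 0.287, 0.622 and 1.05 CPM (-1.87, SE 0.35, edgeR adjusted p = 0.0105), and Mug1 fell by 1.27. The pair share 15.9% (Mug1) and 36.0% (Mug2) of their windows with other transcripts. Kng1, which encodes the bradykinin precursor kininogen, was at 1.83, 2.46, 4.50 and 7.10 CPM and at 1.65, 1.22, 1.87 and 2.56 CPM (-1.04, edgeR adjusted p = 0.0305). In both label sets every deficient animal lay below every control for 9 secreted members (Alb, Serpinc1, Kng1, Mug2, Ttr, Apoc1, Serpina1a, Serpina1c and Serpina1e), against 13.6% of all tested genes. Alb, Mug2, Serpina1a, Serpina1e and Serpinc1 were the 5 members called in all 8 fits that left out 1 animal.

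Among acute-phase genes, Hp was at 262, 394, 293 and 295 CPM in controls and at 554, 437, 338 and 345 CPM in deficient animals. The fold change was 0.41 (SE 0.14, edgeR adjusted p = 0.0759), which was not called. Saa3, a serum amyloid A of macrophages and other cell types (ENSMUSG00000040026, GRCm38 chromosome 7, 46711998 to 46715700), was at 7.66, 18.8, 32.9 and 26.9 CPM and at 47.3, 26.4, 48.1 and 37.2 CPM. Its fold change was 0.97 (SE 0.30, edgeR adjusted p = 0.0603). Hp and Saa3 were the members with deficient animals above controls in both label sets, against 13.7% of all tested genes, and the only tested members with a positive fold change. Genes that neutrophils also carry are given beside them. Of the 16 listed neutrophil markers 14 were in the table and 9 were tested, of which 5 rose and 0 fell, led by S100a8 (3.10), Lcn2 (2.15), S100a9 (2.72) and Prtn3 (1.27 on the log2 scale). Their summed level was 425 to 643 CPM in controls, against 696 to 947 CPM in deficient mice, while Ly6g and Camp have no row and Mpo stayed at 0.0750 to 0.431 CPM. Csf3r had the most counts of these markers in every animal, 4558 to 5716 in controls and 3820 to 5456 in deficient animals. It was not called (-0.20, edgeR adjusted p = 0.263) and made up most of the sum in controls, which is therefore mainly the level of that gene. Among deficient animals Hp was at 554 and 437 CPM in the lower-numbered and 338 and 345 CPM in the higher-numbered animals. In the same order Saa3 was at 47.3 and 26.4 and then 48.1 and 37.2 CPM. The neutrophil marker sum was at 696 and 719 and then 947 and 898 CPM. The part of neutrophils in the Hp and Saa3 values was not tested.

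Saa1 and Saa2, serum amyloid A genes of hepatocytes, were barely detected. Saa1 had 45 counts and Saa2 46 counts over the 8 animals, with 0 in both lower-numbered controls, where 3 counts would be 0.203 CPM in control 2 and 0.199 CPM in control 3. Summed, the pair reached 0.717 and 2.25 CPM in the higher-numbered controls and 0.263 to 1.45 CPM in deficient animals. Per kb of exonic sequence Saa1 averaged 0.162 and Saa2 0.163 CPM, against 11.8 CPM for Saa3. Per kb of the longest coding transcript, which is far shorter than all exons together for Saa1 and Saa2, the values were 0.657, 0.629 and 13.9 CPM. Saa1 and Saa2 are strong acute-phase genes of the liver. Orm1, which encodes the acute-phase carrier alpha-1-acid glycoprotein, was at 0.678, 1.46, 2.10 and 3.30 CPM and at 0.724, 1.36, 1.94 and 2.76 CPM. The genotypes differed by less than the spread between animals (-0.14, SE 0.30, edgeR adjusted p = 0.789), and the higher-numbered animals were above the lower-numbered ones in both genotypes.

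The fibrinogen genes Fga, Fgb and Fgg encode the chains of the clotting protein and stand side by side on GRCm38 chromosome 3, from 83007724 to 83049863. Fga was at 5.28, 13.3, 35.3 and 43.0 CPM in controls and at 14, 9.26, 15.4 and 16.3 CPM in deficient animals (-0.57, edgeR adjusted p = 0.303). Fgb was at 5.83, 12.5, 37.9 and 39.1 CPM and at 14.6, 8.97, 15.6 and 17.7 CPM (-0.50, edgeR adjusted p = 0.336). Fgg was at 4.68, 9.30, 26.6 and 27.8 CPM and at 8.56, 5.96, 10.6 and 12.8 CPM (-0.66, edgeR adjusted p = 0.147). The 3 chains shared 1 pattern: high in both higher-numbered controls and lower in the other 6 animals. This was not particular to them: Itih4, Hpx, Serpina3k, Mug1 and Alb, among others, also had both higher-numbered controls above the other 6 animals. Within the higher-numbered set both deficient animals lay below both controls for 27 of 35 tested members, against 27.8% of all tested genes. Their sum was 15.8, 35.1, 99.7 and 110 CPM in controls and 37.1, 24.2, 41.6 and 46.8 CPM in deficient animals. Itih4, an inter-alpha-trypsin inhibitor heavy chain, was at 2.24, 5.12, 9.38 and 8.46 CPM and at 2.44, 3.09, 3.67 and 3.48 CPM (-0.91, edgeR adjusted p = 0.0527). Hpx, which encodes the heme carrier hemopexin, was at 7.79 to 23.3 CPM in controls, against 8.47 to 11.5 CPM in deficient mice (-0.58, edgeR adjusted p = 0.105).

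Promoter sequence is shown for the 3 fibrinogen genes and, beside them, for Saa3 and Alb. The pattern of the fibrinogen genes over the animals was not particular to them. Each line is the 250 bases before the RefSeq start of the gene (GRCm38.p6), 5′ to 3′ on the gene's strand. Fga is at chr3:83025903-83026152 (plus strand), Fgb at chr3:83049864-83050113 (minus strand), Fgg at chr3:83007474-83007723 (plus strand), Saa3 at chr7:46715677-46715926 (minus strand) and Alb at chr5:90460620-90460869 (plus strand). Capitals mark matches on either strand to CTGGGA, the core letters of interleukin-6 response elements, to GTTAAT, a partial site of the hepatocyte factor HNF1, and to TTGCNNAA, letters of C/EBP sites; no marked matches overlap.
Fga: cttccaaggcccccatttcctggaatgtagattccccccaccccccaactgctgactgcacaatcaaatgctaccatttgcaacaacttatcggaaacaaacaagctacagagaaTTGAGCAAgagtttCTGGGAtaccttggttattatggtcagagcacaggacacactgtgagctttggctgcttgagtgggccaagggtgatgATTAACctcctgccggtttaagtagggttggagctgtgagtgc
Fgb: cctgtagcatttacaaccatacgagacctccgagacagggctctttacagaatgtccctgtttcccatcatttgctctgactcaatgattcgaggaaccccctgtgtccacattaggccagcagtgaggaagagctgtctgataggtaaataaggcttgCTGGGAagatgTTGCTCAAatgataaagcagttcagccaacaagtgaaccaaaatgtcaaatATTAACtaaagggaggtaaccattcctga
Fgg: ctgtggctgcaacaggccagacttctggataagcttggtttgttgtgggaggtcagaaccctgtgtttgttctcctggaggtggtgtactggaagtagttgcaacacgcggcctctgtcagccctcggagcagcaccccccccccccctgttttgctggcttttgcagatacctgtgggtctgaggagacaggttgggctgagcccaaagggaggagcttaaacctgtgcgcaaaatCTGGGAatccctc
Saa3: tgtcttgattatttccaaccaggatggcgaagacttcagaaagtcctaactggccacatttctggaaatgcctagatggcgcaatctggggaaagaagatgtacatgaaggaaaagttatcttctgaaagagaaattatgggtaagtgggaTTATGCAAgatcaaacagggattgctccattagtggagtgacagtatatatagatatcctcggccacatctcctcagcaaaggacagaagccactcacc
Alb: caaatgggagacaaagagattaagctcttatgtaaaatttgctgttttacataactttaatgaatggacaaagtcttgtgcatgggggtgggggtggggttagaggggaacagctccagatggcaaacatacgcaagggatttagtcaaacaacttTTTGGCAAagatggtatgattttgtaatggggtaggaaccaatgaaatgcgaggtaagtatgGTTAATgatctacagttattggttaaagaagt
CTGGGA lies 121 to 116 bases before the start of Fga, 91 to 86 before that of Fgb and 13 to 8 before that of Fgg, and is in neither the Saa3 nor the Alb window. Over the 30 of 39 members with a promoter in the RefSeq table, CTGGGA was in 4 of 8 acute-phase windows (Fga, Fgb, Fgg and Itih4), 1 of 17 secreted (Apoa1) and 0 of 5 metabolic windows, against 27.0% of all 32851 windows of this length. GTTAAT was in 9 of 17 secreted (Alb, Vtn, Mug1, Mug2 and Serpina1a to Serpina1e), 2 of 8 acute-phase and 2 of 5 metabolic windows, against 6.43% of all windows. TTGCNNAA was in 6 of 17 secreted, 6 of 8 acute-phase and 1 of 5 metabolic windows, against 9.56%. Its secreted genes were Ahsg, Alb, Apob, Serpina1b, Serpina1d and Serpina1e, and its acute-phase genes Fga, Fgb, Hpx, Saa1, Saa2 and Saa3. The Serpina1, Mug and Saa genes are families of related genes, so these windows are not independent. A match describes letters and does not show binding.

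Metabolic enzymes were at the edge of detection. Fabp1, a fatty acid binding protein, was at 1.22, 1.20, 1.50 and 6.24 CPM in controls and at 0.527, 0.431, 0.761 and 1.77 CPM in deficient animals (-1.50, SE 0.48, edgeR adjusted p = 0.0653). Control 11 was far above the other 7 animals. Pck1, which encodes a rate-limiting enzyme of glucose synthesis, was at 0.407, 0.465, 2.10 and 4.23 CPM and at 0.658, 0.215, 2.21 and 2.69 CPM (-0.27, edgeR adjusted p = 0.622). Every higher-numbered animal was above every lower-numbered one. Cyp2e1, the cytochrome that turns acetaminophen into its reactive metabolite, was at 0.542, 0.665, 1.20 and 1.0 CPM and at 0.922, 0.215, 1.18 and 0.656 CPM (-0.18, edgeR adjusted p = 0.790). Gnmt, which methylates glycine, was at 1.15, 1.53, 0.450 and 2.58 CPM and at 1.51, 1.22, 1.59 and 1.12 CPM (-0.07, edgeR adjusted p = 0.926). The genotypes overlapped in both genes. Cps1 of the urea cycle had 40 counts and Bhmt, of methionine synthesis, 35 counts in all 8 animals, too few to be tested.

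The label sets differed for another subset of members. With genotype in the model, 11 of 35 members were higher in the higher-numbered set and 0 lower, against 18.6% of tested genes higher and 18.3% lower. Of these, 6 were acute-phase genes (Fgg 1.35, Fgb 1.29, Fga 1.28, Orm1 1.25, Itih4 0.87 and Hpx 0.66 on the log2 scale), 2 were metabolic (Pck1 2.65, edgeR adjusted p = 0.00067, and Fabp1 1.58) and 3 were secreted (Mug2 1.50, Kng1 1.09 and Serpina1a 0.88). Alb (0.28, edgeR adjusted p = 0.449) was not called. Without control 11 the count was 7, and without deficient 5 it was 17. Several other lists also moved with the label set. Of 18 tested acute-phase signalling genes 12 were higher in the higher-numbered set and 3 lower. Of 9 neutrophil markers 6 were higher and 0 lower, and of 3 erythroid markers 3 and 0. Of 9 monocyte markers 2 were higher and 4 lower, and of 8 Kupffer cell markers 0 and 1. Sinusoidal endothelial markers moved the same way: 7 of 9 tested were higher in the higher-numbered set, and their summed level was 47.8, 46.8, 148 and 209 CPM in controls and 37.7, 84.5, 215 and 171 CPM in deficient animals, with all 10 markers detected. Pecam1, which leukocytes also carry, made up 11.8 to 174 CPM of this sum; without it the other 9 markers summed to 34.8, 35.0, 43.6 and 160 CPM in controls and to 25.5, 20.0, 40.7 and 59.7 CPM in deficient animals. The part of any of these lists in the members' values was not tested.

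The log2 fold change was more negative in the higher-numbered set for 33 of 35 tested members, as it was for 52.2% of all tested genes. In a model with the interaction, the median log2 fold change of the members was -0.44 among lower-numbered animals and -1.37 among higher-numbered ones. In the higher-numbered set 17 members fell and 0 rose, against 4.92% of all tested genes that fell and 3.55% that rose. In the lower-numbered set 0 members were called as lower or higher, against 0.279% and 0.378% of all tested genes, although 28 of 35 had a negative fold change. The 17 were 12 secreted and 5 acute-phase genes (Fga, Fgb, Fgg, Hpx and Itih4). For Alb the values were -0.81 and -1.93 in the same order. For Fga the values were 0.32 and -1.30, and for Hpx -0.06 and -1.05. Mug2 (-2.12 and -1.75) and Trf (-0.58 and -0.05) were the members with the more negative value in the lower-numbered set. The difference between the sets was itself called for 0 of 35 members, against 0.0411% of tested genes (0.0246% with a more positive and 0.0164% with a more negative effect in the higher-numbered set). The lowest edgeR adjusted p of a member was 0.487 (Fgb), 10 of 35 had an unadjusted p under 0.05, and DESeq2 called 2 members and limma voom 0. A difference between the sets was therefore not shown for any single member by the edgeR test.

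**Figure D4:**
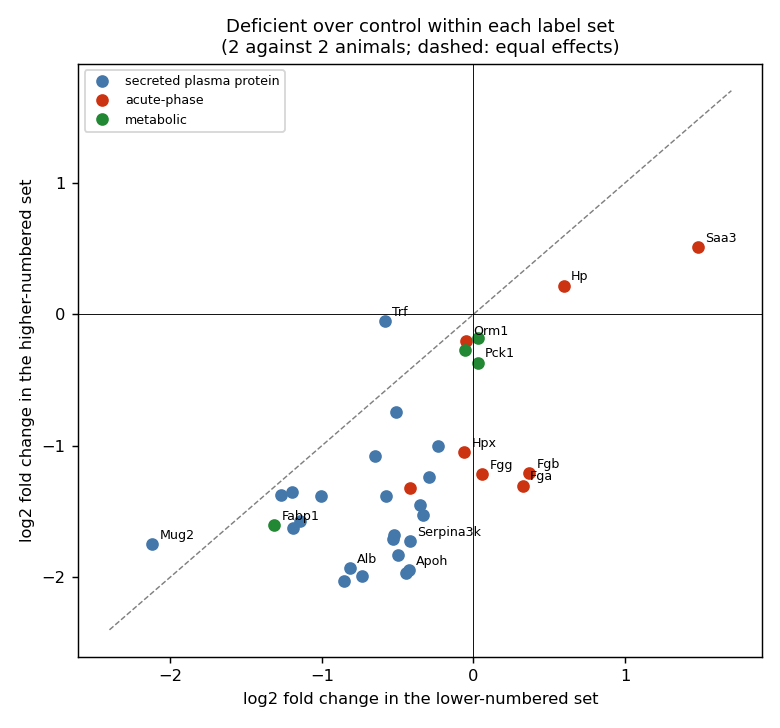
Log2 fold change of deficient over control in the lower-numbered set (horizontal axis) against the higher-numbered set (vertical axis), 1 point per tested member, coloured by role. Points of 33 of 35 members lie below the diagonal, which marks equal effects.

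Counts relative to Alb within each library compare members without a scaling factor. Per 100 Alb counts, the 3 fibrinogen chains together had 22.7, 26.7, 67.1 and 53.8 counts in controls and 60.5, 45.6, 106 and 87.8 in deficient animals. Hp had 378, 299, 197 and 144 counts in controls and 903, 824, 863 and 647 in deficient animals, and Saa3 had 11.0, 14.3, 22.2 and 13.2 and then 77.0, 49.8, 123 and 69.8. On this scale 7 members had every deficient animal above every control (Hp, Saa3, Hpx, Ahsg, Serpina1b, Ambp and Gnmt), against 58.6% of all tested genes. All 8 acute-phase members detected in every animal had more counts per Alb count in deficient animals in both label sets, as had 4 of 22 other secreted members (Apob, Serpina1b, Ahsg and Ambp). Since Alb itself fell, 68.2% of all tested genes met the same condition, and the count for the acute-phase genes is to be read against that. Between the lowest and the highest animal, counts per Alb count varied 1.48-fold (Ahsg) to 6.12-fold (Mug2) over the 22 secreted members, with a median of 2.07-fold. Over the 8 acute-phase members the range was 2.63-fold (Hpx) to 11.1-fold (Saa3), with a median of 4.96-fold.

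**Figure D5:**
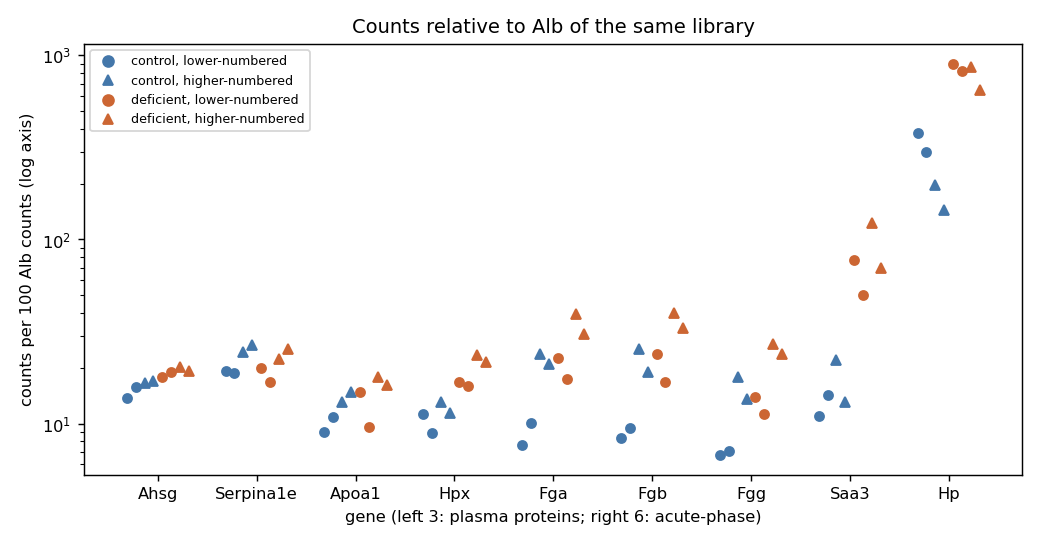
Counts of selected members per 100 Alb counts in the same library, on a log axis, 1 point per animal with genotype by colour and label set by symbol. Hp, Saa3, Hpx and Ahsg lie higher in all 4 deficient animals than in all 4 controls, as do 58.6% of all tested genes. Hp and Saa3 have a wider range over the animals than Ahsg and Serpina1e.

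Genes beside the list gave the surroundings of these values. Of 71 further hepatocyte genes 64 were in the table and 32 tested, of which 1 rose and 6 fell. Gc, the vitamin D carrier, fell by 1.13, Itih1 by 1.57 and Mup3, a major urinary protein, by 1.06 on the log2 scale. Lrg1, an acute-phase glycoprotein also stored by neutrophils, was the 1 that rose, at 3.79, 12.6, 14.6 and 15.1 CPM in controls and 42.3, 22.6, 34.7 and 28.6 CPM in deficient animals (1.52, edgeR adjusted p = 0.0183). Of 18 tested genes of acute-phase signalling 5 rose and 0 fell, among them the feedback inhibitor Socs3 (0.69), the cytokines Il6 (1.76) and Lif (1.02) and the shared receptor chain Il6st (0.77). These named genes differed more between the label sets, higher in the higher-numbered set (Socs3 1.71, Il6 4.48, Lif 3.17 and Il6st 1.61 on the log2 scale). Of 3 tested hepatocyte-type factors, Cebpa fell by 0.32 and Cebpb by 0.41, both of which monocytes express. Of 20 tested receptors and scavengers of plasma proteins 4 rose (Cd36 by 1.22, Lrp8 by 0.52, Itgam by 0.62 and Plaur by 0.31) and 2 fell. All calls in these lists are from the same edgeR model with the label set.

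Other cell types of the liver moved as follows. Of 8 tested Kupffer cell markers, those of the resident macrophages, Hpgd, Vsig4, Adgre1 and Clec4f fell and 0 rose (summed level 513 to 653 CPM in controls, 344 to 502 CPM in deficient animals). Most of this sum was Adgre1, with 4597 to 7029 counts per animal, followed by Hpgd with 200 to 2587. No other marker of this list exceeded 160 counts in an animal, and Clec4f had 7 to 38 and Vsig4 1 to 29. Among the sinusoidal endothelial markers Clec4g fell, at 1.90, 2.33, 4.05 and 16.9 CPM in controls and 0.922, 0.574, 1.38 and 2.63 CPM in deficient animals, so control 11 was again the highest animal. Of the 9 tested monocyte markers 2 rose and 3 fell, with summed levels of 8895 to 10812 CPM in controls, against 9658 to 11939 CPM in deficient mice. Of the tested dendritic cell markers 3 of 6 fell (Flt3, Clec9a and Cd209a), of the 7 lymphocyte markers Jchain rose and Cd79b fell, of the platelet markers 1 of 3 rose (Ppbp), and the single tested cholangiocyte marker, Krt7, fell. None of the 2 stellate and 3 erythroid markers tested was called by edgeR; their values were -0.54 (Dcn), 0.09 (Pdgfrb), 0.52 (Hba-a1) and 0.33 (Hbb-bs). How far any of these cells enters the values of the 39 genes was not tested.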

How the data were processed

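Libraries were made from 500 ng of RNA per animal, each from 1 mouse. The authors deposited raw counts per gene, 1 column per animal, and a normalised signal that was not tested. By its values, that deposited signal equals the counts over a factor for each library. The submitters' processing notes name HTSeq 0.12.4, STAR 2.7.3a, cutadapt and DESeq2 1.26.0, and the build GRCm38; strandedness is not given in the sources used here, so overlapping genes on opposite strands may share counts. The maximum of every row over the animals is 6 counts or more. The 1 cre row was left out of totals and tests. Of 15336 gene identifiers, 15318 are in GENCODE M21, which gave positions and lengths.

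Tests used edgeR 4.0.16 under R 4.3.3 (TMM factors 0.944 to 1.03; filterByExpr, min.count 10 and min.total.count 15, 12178 genes kept; quasi-likelihood F-test, two-sided, Benjamini-Hochberg), on code tested on simulated data. The model held label set and genotype; a second added their interaction. CPM uses the library total times its TMM factor. Limits for a count of 0 use 3 counts and cover counting error only. Alternatives were DESeq2 1.42.0, limma voom 3.58.1, relative log expression and upper-quartile factors, no count filter, no covariate, each label set alone and each animal left out. DESeq2 and limma voom without a covariate, the sums within each set, other denominators than Alb, the endothelial sum without Pecam1 and levels per transcript length were added after seeing the data. Shared sequence was counted over 75-base windows of transcripts. Promoters are from RefSeq GRCm38.p6; 9 of 39 members had no entry.

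The members, gene lists and tests were chosen with earlier results of these data known. Sums over members carry no p, although an exact permutation test had been planned for them. Values in every animal are given for the 4 members of each role with the highest mean, for called members (the 10 with the smallest p per test) and for Alb, Hp, Saa3, Orm1 and Cyp2e1; each other list is named by at most 4 called genes, those of smallest p, or by 2 uncalled ones.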

Additional observations from a re-analysis of the deposited data

Results flagged for a closer look

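Of 102 groups of 4 animals looked at, 5 had 1 animal far from the other 3 of its group, with a gap, as a share of the range, above Dixon's critical value; chance gives about 1 in 20. Serpinc1 in deficient 5 was at 1.19 CPM beside 1.58, 1.58 and 1.59 CPM in the other deficient animals. These values rest on only 18 counts in deficient 5 and 22 to 24 counts in the others. Control 11 was the highest control for Fabp1 (6.24 CPM, beside 1.20, 1.22 and 1.5 CPM), for Bhmt (0.860 CPM, beside 0.00, 0.0665 and 0.136 CPM) and for the summed metabolic enzymes (16 CPM, beside 3.59, 4.25 and 5.55 CPM). The Bhmt values rest on only 12 counts in control 11 and 0 to 2 counts in the other controls. Control 2 was the lowest control for the summed acute-phase genes (296 CPM, beside 459, 466 and 467 CPM).

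The summed acute-phase genes parted the genotypes in opposite directions in the label sets. Deficient animals were above controls in the lower-numbered set (652 and 502 against 296 and 466 CPM) and below them in the higher-numbered set (444 and 447 against 459 and 467 CPM). The log2 of the ratio of the deficient to the control mean CPM differed by -0.653 as the higher-numbered minus the lower-numbered set, which is not the difference of mean logs used below, and this was not tested.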

How the results depend on the processing

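No paired analysis was possible because controls and deficient animals have no number in common. The calls of the secreted genes rest on the label set being in the model, while their median fold change was -1.21 with it and -1.24 without it. Without it, edgeR called 0 genes and 0 members, limma voom 0 and 0, and DESeq2 159 genes and 6 members, against 1697 and 14 with it. The lower-numbered set alone gave 46 genes and 0 members, and the higher-numbered set alone 646 genes. All 14 members kept a negative fold change without the covariate. Because the label sets are balanced between genotypes, neither these signs nor the medians above could change much. With 1 animal left out, 697 to 1685 genes and 5 to 22 members were called for genotype, 0 to 1 genes for the difference between sets and 7 to 17 members for the label set. For the difference between sets DESeq2 called 53 genes and 2 members and limma voom 3 genes, against 5 and 0. Relative log expression and upper-quartile factors and the absence of a count filter kept all 14 members called, and DESeq2 and limma voom with the label set kept 13 and 12.

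As a difference of mean log2 sums, the secreted genes had a log2 ratio of -1.10, with -0.66 for lower-numbered and -1.55 for higher-numbered animals alone. The acute-phase sum, at 0.28, was 0.62 and -0.056 in these sets, and -0.48 without Hp and Saa3. The metabolic sum, at -0.41, was 0.060 without control 11, and from -0.66 to -0.10 with another animal left out. Single genes with no call also changed sign: in the lower-numbered set alone Fga was 0.32, Fgb 0.37, Fgg 0.057 and Gnmt 0.031. Gnmt was 0.14 with limma voom, with or without the covariate, 0.48 without control 11 and 0.04 without deficient 13. Cyp2e1 was 0.055 without deficient 6 and 0.02 without deficient 13, Pck1 0.15 without control 11, and Orm1 0.02 without control 3 and 0.054 without control 11. Over left-out animals the lowest values were -0.40 for Gnmt, -0.54 for Cyp2e1, -0.54 for Pck1 and -0.30 for Orm1. The fibrinogen chains had more counts in deficient animals within both label sets per 100 Apoa1 counts (253, 246, 509 and 364 in controls, 409, 475, 595 and 544 in deficient animals) and per 100 Serpina1e counts, as per 100 Alb counts. Apoa1 (-1.14), Serpina1e (-1.46) and Alb (-1.37) all fell more than the fibrinogen chains (-0.50 to -0.66). The higher ratios largely follow from that and are no separate result. For Apoa1 and Serpina1e the share of all tested genes meeting this condition was not counted. The causes were not tested.

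The least abundant members had few reads: Cps1, Bhmt, Saa1 and Saa2 had at most 46 counts over 8 animals, so differences in them were not detectable at this depth. With 2 animals per genotype and label set, differences within a set rest on few animals.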
